A study of Mus musculus with 6 samples.

Results

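Glucuronosyltransferases and glutathione transferases are the enzymes of the liver's 2 large conjugation pathways. Their genes were compared here between the livers of cGK1-KO mice and control mice. The members are all array probe sets annotated to a single gene symbol that begins with Ugt1a, Ugt2, Ugt3, Gsta, Gstm, Gstp, Gstt, Gsto, Gstk, Gstz or Mgst, taking the brightest probe set of a gene. This gave 31 of the 22180 genes tested, 10 glucuronosyltransferase and 21 glutathione transferase genes, each with 1 probe set. The 10 include 2 Ugt3 genes, counted here by name, whose family transfers other sugars than glucuronic acid. The Ugt1a and Gstz families, and the genes Ugt2a1, Ugt2a2, Gsta1, Gsta2 and Gstm5, have no member, because their probe sets are annotated to several genes each.

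The knockout group held 3 liver samples of male C57BL/6N mice that lack the cGMP-dependent kinase cGK1, the product of Prkg1. By the series description, the kinase was restored in smooth muscle of these mice. The control group held 3 liver samples of male C57BL/6N mice, named wild type by the sample labels and control by the series description. Whether the samples of a group came from separate animals is not stated in the labels. All mice were 2 months old. The promoter of the rescue, and whether control mice carried any part of it, are not given in the sources used here, so the model is a loss of the kinase outside smooth muscle and not in hepatocytes alone.

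Glucuronosyltransferases sit in the endoplasmic reticulum and move glucuronic acid from UDP-glucuronic acid onto bilirubin, steroids, bile acids and drugs, which makes them soluble enough for bile or urine. Glutathione transferases join glutathione to electrophiles such as lipid aldehydes and reactive drug metabolites, the cytosolic classes alpha, mu, pi, theta, omega and zeta acting in solution and the microsomal class in membranes. Hepatocytes hold most of the liver's activity of both pathways, and several genes of each are controlled by nuclear receptors, by the antioxidant factor NRF2 and by the sex-dependent pattern of growth hormone.

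The promoters of 2 gene groups on which the comparison turned are shown first. The tandem genes Gstp1, Gstp2 and Gstp3 on chromosome 19 encode pi class glutathione transferases, and the differences of Gstp1 and Gstp2 were negative and that of Gstp3 positive, none of them past the adjusted threshold. Each window is 300 bases of RefSeq's GRCm38.p6 sequence, from 250 before the gene's start to 50 after it, written 5′ to 3′ on the gene's strand. Capitals mark matches to TGAGTCA, searched on both strands (TGACTCA on the other), the letters bound by AP-1 and related factors.

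Gstp1: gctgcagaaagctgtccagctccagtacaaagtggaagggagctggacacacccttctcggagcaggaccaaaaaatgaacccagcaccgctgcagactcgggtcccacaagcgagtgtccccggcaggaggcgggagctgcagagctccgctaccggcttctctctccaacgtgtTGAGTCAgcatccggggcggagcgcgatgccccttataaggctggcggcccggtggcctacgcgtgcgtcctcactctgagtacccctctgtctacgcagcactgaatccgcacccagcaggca
Gstp2: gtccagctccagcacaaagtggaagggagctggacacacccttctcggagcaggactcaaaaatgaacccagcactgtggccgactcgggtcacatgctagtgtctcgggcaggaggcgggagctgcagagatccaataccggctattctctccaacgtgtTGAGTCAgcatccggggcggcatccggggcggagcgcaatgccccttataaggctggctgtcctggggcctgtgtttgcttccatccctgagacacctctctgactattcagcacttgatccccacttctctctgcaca
Gstp3: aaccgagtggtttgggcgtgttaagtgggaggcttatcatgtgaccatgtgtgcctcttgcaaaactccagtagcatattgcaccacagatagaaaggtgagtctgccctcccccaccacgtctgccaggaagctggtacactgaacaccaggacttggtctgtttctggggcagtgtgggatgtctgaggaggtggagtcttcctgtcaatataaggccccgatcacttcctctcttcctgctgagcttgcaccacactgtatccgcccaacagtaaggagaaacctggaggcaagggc

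All these windows lie on the minus strand, at chr19:4037863-4038162 for Gstp1, chr19:4042172-4042471 for Gstp2 and chr19:4059398-4059697 for Gstp3. Gstp1 and Gstp2 each held 1 match, beginning 74 and 89 bases before the start, and Gstp3 held 0. Among the other members the windows of Mgst2 and Ugt2b37 held the letters too, which makes 4 of 28 members with a window. Of all 32851 promoter windows of the table, 5.20% held these letters. In global alignment 76.4% of the aligned positions were identical between Gstp1 and Gstp2, against 48.3% between Gstp1 and Gstp3.

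The second set is of glucuronosyltransferase genes. The differences of Ugt2b1, Ugt2b5 and Ugt3a1 were negative, with overlapping groups in Ugt2b1 and none of them past the adjusted threshold. Ugt2b36 differed by -0.03. Capitals mark matches to GTTA followed after 4 bases of any kind by TTAAC, searched on both strands, letters like those bound by the hepatocyte factor HNF1. These letters were chosen after these promoters had been read.

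Ugt2b1: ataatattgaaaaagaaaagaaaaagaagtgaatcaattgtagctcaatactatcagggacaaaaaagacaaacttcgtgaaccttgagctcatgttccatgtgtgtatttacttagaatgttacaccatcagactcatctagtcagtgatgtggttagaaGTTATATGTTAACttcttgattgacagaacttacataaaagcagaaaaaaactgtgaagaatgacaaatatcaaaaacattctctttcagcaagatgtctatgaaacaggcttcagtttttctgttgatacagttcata
Ugt2b5: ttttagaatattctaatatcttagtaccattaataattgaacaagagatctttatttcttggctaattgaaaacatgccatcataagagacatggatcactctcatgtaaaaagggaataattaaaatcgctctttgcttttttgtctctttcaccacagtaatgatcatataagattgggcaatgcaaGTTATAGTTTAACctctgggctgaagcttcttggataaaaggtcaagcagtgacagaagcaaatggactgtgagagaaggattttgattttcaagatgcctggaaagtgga
Ugt2b36: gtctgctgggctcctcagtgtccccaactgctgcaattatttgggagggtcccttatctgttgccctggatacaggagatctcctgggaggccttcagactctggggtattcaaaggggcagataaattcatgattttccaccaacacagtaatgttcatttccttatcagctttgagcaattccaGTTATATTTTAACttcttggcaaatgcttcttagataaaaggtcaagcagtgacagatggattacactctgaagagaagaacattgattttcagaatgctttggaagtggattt
Ugt3a1: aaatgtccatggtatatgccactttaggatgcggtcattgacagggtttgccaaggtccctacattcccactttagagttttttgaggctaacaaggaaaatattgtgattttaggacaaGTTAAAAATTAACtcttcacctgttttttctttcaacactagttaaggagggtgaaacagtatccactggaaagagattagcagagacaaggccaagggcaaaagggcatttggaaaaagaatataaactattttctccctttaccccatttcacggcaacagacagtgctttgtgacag

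The windows are chr5:86926454-86926753 for Ugt2b1, chr5:87140291-87140590 for Ugt2b5 and chr5:87092506-87092805 for Ugt2b36, all on the minus strand, and chr15:9279579-9279878 on the plus strand for Ugt3a1. The match began 89, 61, 64 and 130 bases before the start in Ugt2b1, Ugt2b5, Ugt2b36 and Ugt3a1. It was found in all 7 Ugt2b members and in Ugt3a1, not in Ugt2a3, and in 0.189% of all promoter windows. Because Ugt2b36 and Ugt2b34, which differed little between the groups, also hold it, the match did not separate the members that lay lower from those that did not. The core letters TGACNNNGC of the antioxidant response element were in the windows of 3 members, Gsta3, Gstm7 and Mgst1, and in 12.4% of all windows. The STAT type letters TTCNNNGAA, which read the same on both strands, were in those of Gstm6, Mgst1 and Mgst2, and in 8.30% of all windows. For 28 of the 31 members a window was found, and motif counts over genes with several windows take any of them.

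Each sample was measured on 1 array, and all levels are log2 RMA expression, so that a difference of 1 is a 2-fold ratio. Group values are means ± SD with n = 3 arrays per group throughout. Differences are knockout minus control with the standard error of a limma model fitted to all 22180 genes. With so few arrays every value is of limited precision. Array medians lay between 3.11 and 3.16, and probe sets whose mean over all arrays was under 3.11 are called dim, since the size of their differences is uncertain. Prkg1 was at 3.31, 3.04 and 3.22 in knockout livers and at 3.32, 2.97 and 2.95 in control livers, a difference of 0.11 (SE 0.15). Its signal lay near that limit, so it does not check the genotype labels. Across genes knockout replicate 3 correlated at 0.978 and 0.979 with the other knockout arrays and at 0.981 to 0.983 with the control arrays. Knockout replicates 1 and 2 correlated at 0.983 with each other, and control arrays at 0.989 to 0.990. The knockout arrays as a group were thus less alike than the controls, not knockout replicate 3 alone. The members at an unadjusted p under 0.05, and others that shift clearly without knockout replicate 3, are given without it after the families. The hepatocyte markers Alb, Apoa1, Ttr, Cps1 and Serpina1c all differed by less than 0.17 between groups, and Tat, with all knockout values under the controls, by -0.38. The summed linear signal of the 6 hepatocyte markers was 31958 to 32812 in knockout livers against 32969.5 to 34703 in control livers, without overlap. Only Tat was separated by itself, and 2 of the 6, Alb (0.04) and Ttr (0.04), had positive differences. The sum therefore does not stand for all 6 markers. All 10 macrophage markers lay higher in the knockout livers at an unadjusted p under 0.05, against 5.06% of all genes. Their summed linear signal was 788 to 1958 in knockout livers against 580 to 634 in control livers, and 0 of them were dim. In bulk liver RNA fewer cells of a type and less RNA per cell cannot be told apart, and the part of these marker shifts in the results below was not tested.

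None of the 31 members passed an adjusted p of 0.05 in limma, as was true of all genes tested (0 called, 0%). At an unadjusted p under 0.05 there were 11 members, against 10.5% of all genes. Of these, 8 lay lower, against 5.46% of all genes, and 3 lay higher, against 5.06%. Without control replicate 3 the number of lower members was 5, in a fit with 7.86% of all genes at that threshold in either direction. The groups did not overlap in 9 members, against 16.7% of all genes. In absolute size the median difference of the members was 0.30, against 0.14 over all genes, and 4 members differed by 1 log2 unit or more, as did 0.528% of all genes. The members were chosen as whole families with earlier results known and share sequence within families, so these shares carry no test.

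**Figure D1:**
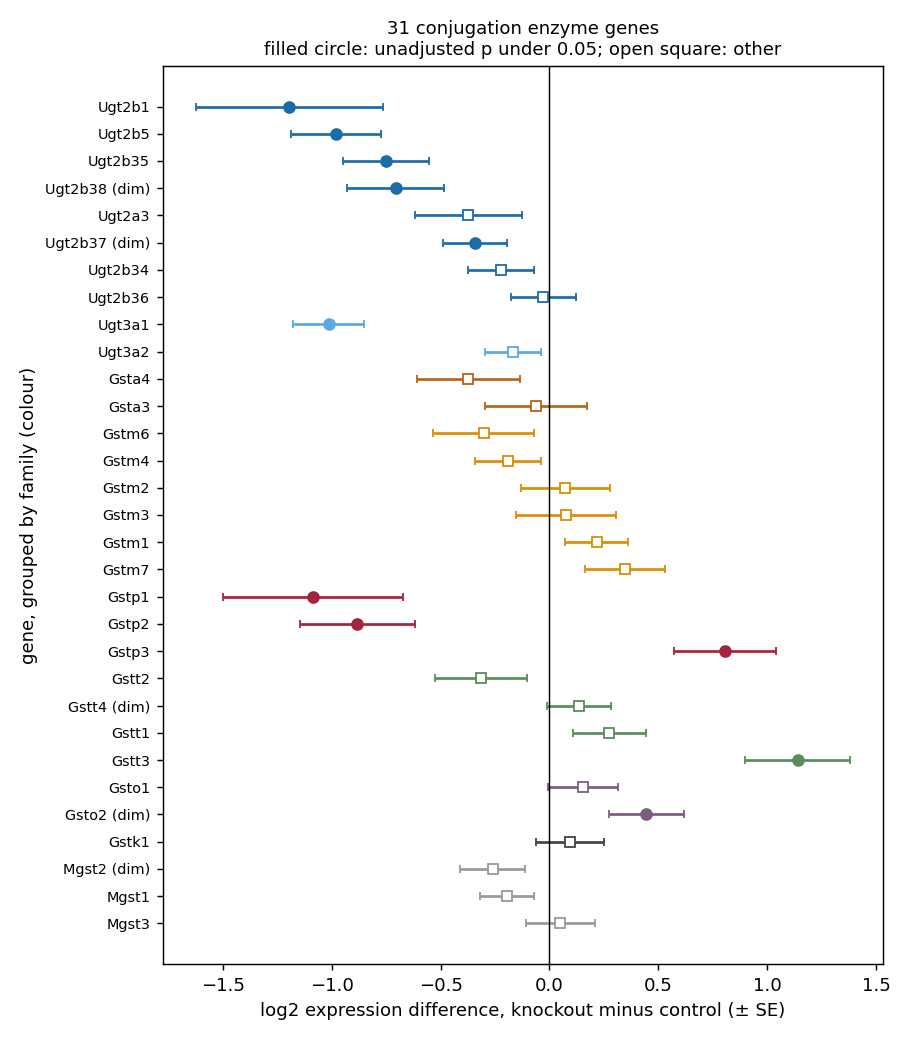
Log2 expression difference, knockout minus control, of each of the 31 genes with bars of the model's standard error, grouped and coloured by family. Filled circles mark the 11 genes at an unadjusted p under 0.05, and dim genes are named as such. All 10 glucuronosyltransferase genes lie left of 0 (Ugt2b36 at -0.03 turned to 0.012 after further quantile normalization), while the glutathione transferase genes lie on both sides, from Gstp1 at -1.09 to Gstt3 at 1.14.

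Of the 10 glucuronosyltransferase members, 6 lay lower in the knockout livers at an unadjusted p under 0.05, against 5.46% of all genes. At that threshold 0 lay higher, against 5.06% of all genes, and 0 members passed after adjustment. The 8 Ugt2 genes gave 5 of these 6, among them the 2 dim ones, and Ugt3a1 was the other. All 10 differences were negative, though Ugt2b36 (-0.03) turned to 0.012 after further quantile normalization. Their median was -0.54. Shared probe sets of the Ugt1a and Ugt2a genes, which are no members, included differences of 0.57 and 0.27. Among the 21 glutathione transferase genes 12 differences were positive and 9 negative, and the median was 0.07. At an unadjusted p under 0.05, 3 lay higher and 2 lower, against 5.06% and 5.46% of all genes. The median over all genes tested was 0.00.

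The UGT2B enzymes conjugate steroids, bile acids and drugs, and their genes stand in a cluster on chromosome 5. Ugt2b5 was at 8.35, 8.28 and 8.99 in knockout livers and at 9.55, 9.29 and 9.72 in control livers. Every knockout value lay under every control value. The means were 8.54 ± 0.39 in knockout and 9.52 ± 0.22 in control livers, 1.97-fold lower (log2 difference -0.98, SE 0.21, adjusted p = 0.221).

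Ugt2b35 showed the same separation with less spread among controls. It was at 6.58, 6.69 and 7.35 in knockout livers and at 7.60, 7.60 and 7.67 in control livers. The log2 difference was -0.75 (SE 0.20, adjusted p = 0.290), 1.68-fold lower, and knockout replicate 3 lay closest to the controls.

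Ugt2b1, whose probe set was the brightest of the Ugt2 family, was at 9.29, 8.20 and 10.3 in knockout livers and at 10.2, 10.5 and 10.7 in control livers. Knockout replicates 1 and 2 lay under all controls, and knockout replicate 3 fell within the control range. The log2 difference was -1.20 (SE 0.43, adjusted p = 0.390), 2.29-fold lower. It was -1.72 without knockout replicate 3 and -0.66 without knockout replicate 2.

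Ugt2a3, whose human counterpart conjugates bile acids, followed the same arrays. It was at 7.33, 7.10 and 8.15 in knockout livers and at 8.05, 7.87 and 7.78 in control livers, so that knockout replicate 3 lay above all controls and the others below. Its log2 difference was -0.37 (SE 0.25, adjusted p = 0.628), and -0.69 without knockout replicate 3.

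Their neighbours Ugt2b34 and Ugt2b36 differed less, by -0.22 (SE 0.15) and -0.03 (SE 0.15), with overlapping groups. For Ugt2b36 the 95% confidence interval of the log2 difference ran from -0.36 to 0.31. Ugt2b36 stands next to Ugt2b5 among the members of the RefSeq gene order, and their promoter windows were 61.4% identical. The Ugt2b5 value minus the Ugt2b36 value was -0.26, -0.55 and 0.02 in knockout livers and 0.79, 0.57 and 0.71 in control livers. This pair was chosen after its values were seen, and its groups did not overlap.

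Ugt2b37 and Ugt2b38 were dim on all arrays. Ugt2b38 was at 1.03, 1.09 and 1.41 in knockout livers and at 1.46, 1.83 and 2.36 in control livers, a log2 difference of -0.71 (SE 0.22, adjusted p = 0.346) that was -0.47 without control replicate 3. Ugt2b37 was at 1.38, 1.19 and 1.25 in knockout livers and at 1.64, 1.39 and 1.82 in control livers, a difference of -0.34 (SE 0.15, adjusted p = 0.460). Both kept the knockout values under the controls, but signals this low give no reliable fold. The promoter windows of Ugt2b5, Ugt2b37 and Ugt2b38 were 76.2% to 86.9% identical to each other, and such close paralogs can share probes or cross-hybridise.

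The UGT3 family uses other sugars than UDP-glucuronic acid: human UGT3A1 transfers N-acetylglucosamine. Ugt3a1 had the smallest p of all members. It was at 6.51, 6.13 and 6.69 in knockout livers and at 7.39, 7.50 and 7.48 in control livers. The groups lay 0.70 log2 units apart at their nearest values. The means were 6.44 ± 0.29 in knockout and 7.46 ± 0.06 in control livers, 2.02-fold lower (log2 difference -1.01, SE 0.16, 95% interval -1.38 to -0.65, adjusted p = 0.130).

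Ugt3a2, the neighbouring gene on chromosome 15, was at 9.14, 9.14 and 9.08 in knockout livers and at 9.14, 9.38 and 9.34 in control livers. Its difference was -0.17 (SE 0.13, adjusted p = 0.682). The Ugt3a1 value minus the Ugt3a2 value, a pair also chosen after its values were seen, was -2.64, -3.01 and -2.38 in knockout livers and -1.74, -1.88 and -1.87 in control livers.

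**Figure D2:**
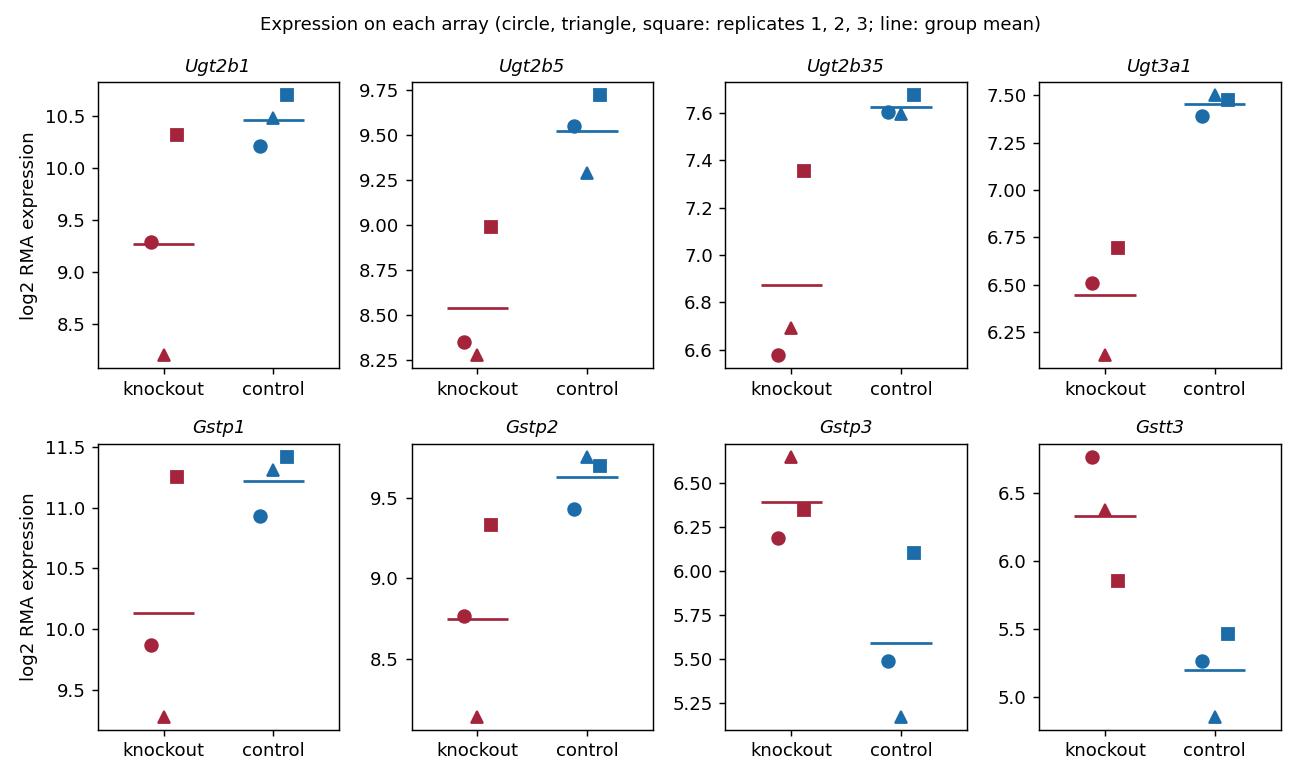
Log2 RMA expression of 8 genes on each array, knockout livers left and control livers right, with circle, triangle and square for replicates 1, 2 and 3 and a line at each group mean. Each panel has its own vertical axis. In Ugt2b1 and Gstp1 the square of knockout replicate 3 lies within the control range, while in Ugt2b5, Ugt2b35, Ugt3a1, Gstp2, Gstp3 and Gstt3 the groups do not overlap.

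The pi class had the widest spread of differences among the glutathione transferases. Gstp1 and Gstp2 are known as male-biased genes of mouse liver. Gstp1 was at 9.87, 9.28 and 11.2 in knockout livers and at 10.9, 11.3 and 11.4 in control livers. Knockout replicates 1 and 2 lay under all controls, and knockout replicate 3 lay within their range. The means were 10.1 ± 1.01 in knockout and 11.2 ± 0.26 in control livers (log2 difference -1.09, SE 0.41, adjusted p = 0.409), 2.12-fold lower. Without knockout replicate 3 the difference was -1.64 (SE 0.22, adjusted p = 0.0254), and without knockout replicate 2 it was -0.66.

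Gstp2 was at 8.76, 8.14 and 9.33 in knockout livers and at 9.43, 9.75 and 9.70 in control livers, without overlap. Its log2 difference was -0.88 (SE 0.26, adjusted p = 0.326), 1.84-fold lower, and it was -0.58 without knockout replicate 2. The annotation names Gstp2 alone for this probe set, but the RefSeq gene table also lists a Gstp pseudogene. Whether the value is that of Gstp2, of Gstp1 or of another copy was not tested, since close copies can share probes.

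Gstp3, the third gene of the tandem, lay higher. It was at 6.18, 6.65 and 6.35 in knockout livers and at 5.49, 5.17 and 6.10 in control livers, with all knockout values above the controls. The log2 difference was 0.81 (SE 0.23, adjusted p = 0.313), 1.75-fold higher. The Gstp3 value minus the Gstp1 value, chosen after its values were seen, was -3.68, -2.63 and -4.90 in knockout livers and -5.44, -6.14 and -5.32 in control livers, again without overlap.

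The theta class acts on small halogenated compounds, and its 4 genes are neighbours on chromosome 10. Gstt3 had the largest positive difference of all members. It was at 6.77, 6.38 and 5.85 in knockout livers and at 5.26, 4.85 and 5.47 in control livers, without overlap. The means were 6.33 ± 0.46 in knockout and 5.19 ± 0.31 in control livers, 2.20-fold higher (log2 difference 1.14, SE 0.24, 95% interval 0.59 to 1.69, adjusted p = 0.221).

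Gstt1, the gene next to it, was at 7.60, 7.31 and 7.41 in knockout livers and at 7.37, 6.85 and 7.29 in control livers. Its groups overlapped, and the difference was 0.28 (SE 0.17, adjusted p = 0.593). Gstt2 differed by -0.32 (SE 0.21) with overlapping groups, and single arrays decided this value, which was -0.08 without knockout replicate 3 and -0.53 without knockout replicate 2. The dim Gstt4 differed by 0.13 (SE 0.15), with overlapping groups. The Gstt3 value minus the Gstt1 value, chosen after its values were seen, was -0.83, -0.94 and -1.56 in knockout livers and -2.10, -1.99 and -1.82 in control livers.

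The omega class reduces dehydroascorbate and mixed disulphides. The dim gene Gsto2 was at 2.84, 2.61 and 2.23 in knockout livers and at 2.25, 2.06 and 2.03 in control livers, a difference of 0.44 (SE 0.17, adjusted p = 0.413) with overlap in knockout replicate 3. Gsto1, whose probe set is bright, was at 8.23, 7.97 and 7.74 in knockout livers and at 7.70, 7.98 and 7.80 in control livers, with overlapping groups and a difference of 0.15 (SE 0.16, adjusted p = 0.772).

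The alpha class detoxifies lipid peroxidation products, and mouse Gsta3 also the epoxide of aflatoxin. Gsta4, whose enzyme acts on hydroxynonenal, was at 5.28, 5.24 and 6.13 in knockout livers and at 5.71, 5.96 and 6.09 in control livers. Again knockout replicates 1 and 2 lay under all controls and knockout replicate 3 above them, and the difference of -0.37 (SE 0.24, adjusted p = 0.608) became -0.66 (SE 0.16, adjusted p = 0.172) without that array. Gsta3 was at 7.58, 7.12 and 8.16 in knockout livers and at 7.79, 7.54 and 7.72 in control livers, a difference of -0.06 (SE 0.24, adjusted p = 0.949) whose sign turned without knockout replicate 2 (0.19) and after further quantile normalization (0.0048).

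In the mu class, a cluster on chromosome 3, 0 of 6 members reached an unadjusted p under 0.05. Gstm7 was at 6.19, 5.82 and 5.94 in knockout livers and at 5.28, 5.74 and 5.88 in control livers, with a difference of 0.35 (SE 0.18, adjusted p = 0.537). Gstm1, the brightest of the class, was at 7.61, 7.33 and 7.56 in knockout livers and at 7.17, 7.19 and 7.48 in control livers, with a difference of 0.22 (SE 0.15, adjusted p = 0.633). In both the groups overlapped. Gstm2, Gstm3, Gstm4 and Gstm6 had differences from -0.30 to 0.08, with overlapping groups.

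The kappa class enzyme Gstk1, found in mitochondria and peroxisomes, was at 9.19, 9.07 and 8.80 in knockout livers and at 8.75, 8.90 and 9.12 in control livers, a difference of 0.10 (SE 0.16, adjusted p = 0.864) with a 95% interval from -0.26 to 0.45. The microsomal enzyme Mgst1 was at 8.40, 8.29 and 8.25 in knockout livers and at 8.45, 8.52 and 8.56 in control livers. Its groups did not overlap, but the difference of -0.20 (SE 0.12, adjusted p = 0.605) was small. Mgst2, which makes leukotriene C in other cells and was dim here, differed by -0.26 and Mgst3 by 0.05, both with overlap.

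Much of the variation among members was carried by single knockout arrays. Of the 11 members at an unadjusted p under 0.05, knockout replicate 3 lay nearer to the control mean than the mean of knockout replicates 1 and 2 did in 10, the exception being the dim Ugt2b37. It lay within the control range in 3 of them, Ugt2b1, Gstp1 and Gsto2, and in 10 of all 31 members. The shares of all genes for these counts were not computed, so the counts do not show knockout replicate 3 to be like the controls. Without this array 5 members passed an adjusted p of 0.05 in limma, against 0.298% of all genes. These were Gstp1 (-1.64), Ugt2b5 (-1.21, SE 0.17, adjusted p = 0.0299), Ugt2b35 (-0.99, SE 0.14, adjusted p = 0.0314), Ugt3a1 (-1.14, SE 0.16, adjusted p = 0.0330) and Gstt3 (1.38, SE 0.21, adjusted p = 0.0475). The other 6 of the 11 did not pass, namely Ugt2b1 (-1.72), Gstp2 (-1.18), Ugt2b38 (-0.82), Gstp3 (0.83), Gsto2 (0.61) and Ugt2b37 (-0.33). Outside the 11, Gstm6 was at -0.56 without this array, against -0.30 with it, and Gsta3 at -0.33, against -0.06. With any of the other 5 arrays left out singly, 0 members passed and 8 to 11 were at an unadjusted p under 0.05. Of all genes, 6.96% to 12.3% were at that threshold in these fits.

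**Figure D3:**
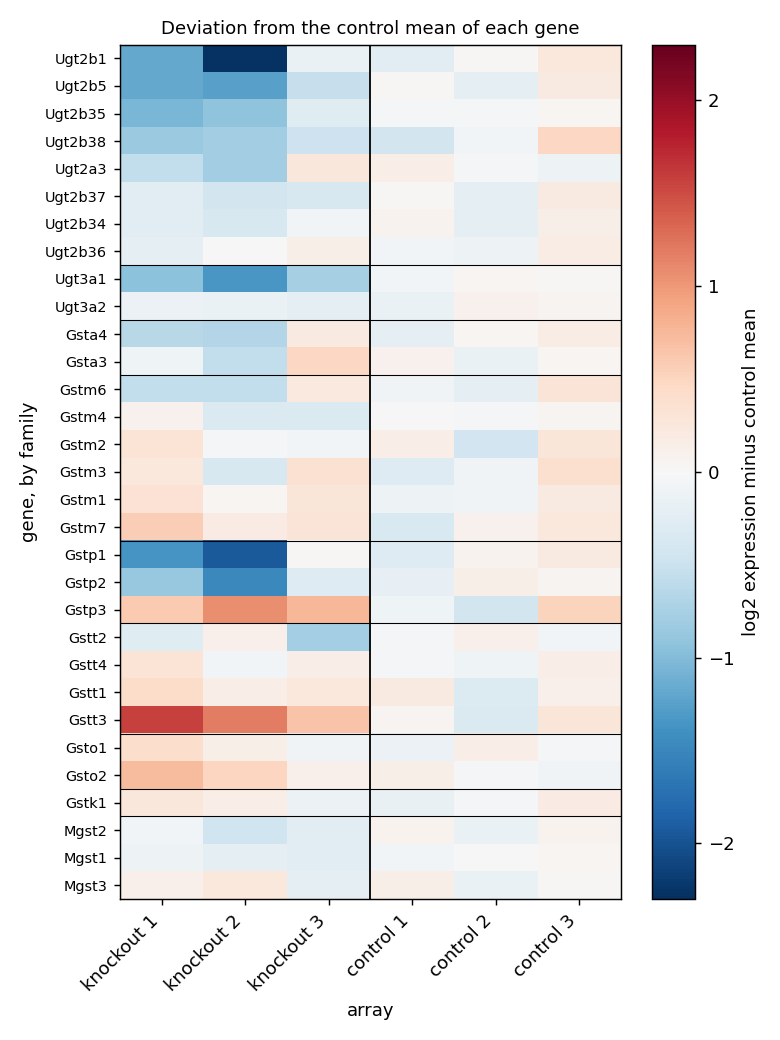
Log2 expression minus the control mean of the gene for each of the 31 genes (rows, by family) on the 3 knockout and 3 control arrays (columns). Blue is lower and red higher than the control mean. Knockout replicates 1 and 2 are blue for Ugt2b1, Gstp1 and Gsta4, where knockout replicate 3 is pale, while Ugt3a1 is blue and Gstt3 red in all knockout arrays.

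**Figure D4:**
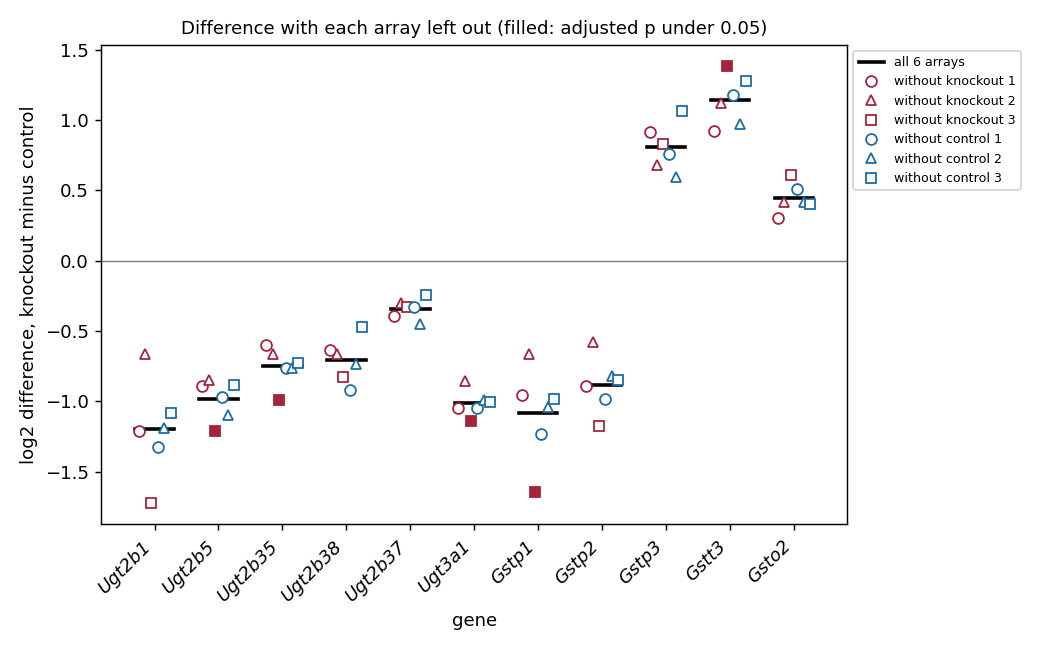
Log2 difference, knockout minus control, of the 11 genes at an unadjusted p under 0.05, for all arrays (black line) and with each array left out in turn (red for knockout arrays, blue for control arrays). Filled symbols mark an adjusted p under 0.05. Every difference keeps its sign, and the filled symbols are those of the fit without knockout replicate 3.

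The enzymes depend on cofactors made by other enzymes. Of 5 measured genes of UDP-glucuronic acid supply and glucuronide cleavage, 1 lay lower and 1 higher at an unadjusted p under 0.05. Ugdh, which makes UDP-glucuronic acid, differed by -0.56 (SE 0.17, adjusted p = 0.327), and the phosphoglucomutase gene Pgm2 by 0.52 (SE 0.14, adjusted p = 0.300). Glutathione synthesis and recycling had 7 of 18 measured genes lower and 1 higher at that threshold, with a median of -0.26. For these and the following lists the background is 5.46% of all genes lower and 5.06% higher. Those lower included glutathione reductase Gsr (-0.46), glutathione synthetase Gss (-0.41), the glyoxalase gene Hagh (-0.41), cystathionine beta-synthase Cbs (-0.39) and Gclc (-0.45), the catalytic subunit of the rate-limiting step. Chac1, which degrades glutathione, lay higher (0.54). None of these passed after adjustment, with adjusted p-values from 0.300 to 0.448.

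Exporters carry the conjugates out of the hepatocyte. Of 9 measured genes 7 had negative differences, and 2 lay lower at an unadjusted p under 0.05, Abcg2 (-0.92, SE 0.13, adjusted p = 0.0888) and Abcc6 (-0.33, SE 0.14, adjusted p = 0.451). The bile canalicular conjugate pump Abcc2 differed by -0.22 (SE 0.13) and its basolateral relative Abcc3 by -0.24 (SE 0.13).

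Among 20 measured transcription factors and receptors of drug metabolism, 5 lay lower and 1 higher at that threshold. The lower were the pregnane X receptor Nr1i2 (-0.42), the hepatocyte nuclear receptor Hnf4a (-0.36), Mafg (-0.36), a partner of NRF2, the male-biased repressor Bcl6 (-1.09, with overlapping groups) and the aryl hydrocarbon receptor Ahr (-0.40). The higher was Stat5b (0.41), which relays growth hormone. Adjusted p-values ran from 0.348 to 0.454. Signature targets of these regulators went different ways. All 6 measured targets of PPARA, the fatty acid-sensing receptor, lay lower at an unadjusted p under 0.05, with a median of -0.90, from the thioesterase gene Acot1 (-1.70), the peroxisomal oxidation gene Ehhadh (-1.62) and the kinase gene Pdk4 (-1.12) to Vnn1 (-0.69), Fgf21 (-0.64) and Cyp4a14 (-0.59). Of 8 measured targets of the drug-sensing receptors CAR and PXR, 3 lay higher, the cytochrome P450 genes Cyp2b9 (5.90), Cyp2b10 (0.98) and Cyp3a13 (0.63), and 1, Gadd45b (-0.91), lower. NRF2 targets had the heme oxygenase gene Hmox1 (0.96) higher, the malic enzyme gene Me1 (-0.70) and Gclc lower and a median of -0.22 over 14 genes. Of 6 AHR targets 1 lay higher, the dim Cyp1a1 (0.37).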

How the data were processed

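RNA of 6 liver samples was hybridised to Affymetrix whole-transcript arrays, 1 array each. The deposited table holds log2 expression values that the authors made with Affymetrix Expression Console 1.4.1 and RMA, per the submitters' processing notes. RMA corrects background, sets arrays to a common distribution and summarises probes, so a shift of most genes together would not be visible. Of 41345 probe sets, 23521 had 1 symbol in the platform annotation, 1814 several and 16010 none listed. All 31 members matched a RefSeq gene (GRCm38.p6) by gene number with the same symbol. No genome build of the files was given in these sources, and the printed coordinates belong to the RefSeq promoter windows.

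The test was lmFit and eBayes of limma 3.58.1 (R 4.3.3) on 22180 genes, 2-sided, with Benjamini-Hochberg adjustment over all of them at a threshold of 0.05. Dim probe sets were kept. The test was tried on simulated data with the same spread in both groups. That trial does not cover the lower likeness among the knockout arrays seen here. The members, the 9 pathway lists and the 11 marker lists were chosen with earlier results of these data known. Named members are those at an unadjusted p under 0.05, the brightest of each family and the 2 of smallest p in the Ugt2, Gsta, Gstm and Gstt families, with the others by difference or range. From pathway lists up to 6 genes at an unadjusted p under 0.05 were named, with Abcc2 and Abcc3 named after their values were seen. Promoters were aligned globally with Biopython 1.88.

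There were 0 pairs of identical arrays. Whether replicates came from separate animals is not stated in the labels, so the p-values measure only how these samples spread, which may be technical. Alternatives were another normalization, a dim filter, other variance priors, array weights, other probe sets, a replicate block and leaving out each array.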

Additional observations from a re-analysis of the deposited data

How the results depend on the processing

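The members at an unadjusted p under 0.05, 11 in the main fit, numbered 8 to 13 when single arrays were left out. Of all genes, 6.96% to 12.3% were at that threshold in those fits. Under the other settings there were 8 to 11 members, against 9.99% to 13.8% of all genes. Without single arrays, 5 to 10 members lay lower, the lowest count being that without control replicate 3. The share of all genes that lay lower was not computed for these fits. Without knockout replicate 3, 5 members passed an adjusted p of 0.05, 0 passed without any other array, and 1 did, Ugt3a1, when the variance prior followed intensity (adjusted p = 0.0443), a setting under which 0.113% of all genes passed. Signs turned for small differences alone. After further quantile normalization Gsta3 was at 0.0048 and Ugt2b36 at 0.012, and without single arrays the values ran from -0.33 to 0.19 for Gsta3, -0.11 to 0.068 for Ugt2b36, -0.14 to 0.21 for Gstm2, -0.071 to 0.30 for Gstm3 and -0.045 to 0.18 for Mgst3. The cause was not tested. The replicate number as a block left 10 members at an unadjusted p under 0.05, against 10.6% of all genes, and 0 past the adjusted threshold. Same-numbered arrays did not deviate together (correlations 0.0064, 0.053 and 0.015). The dim filter removed 5 members and kept 26. Dim signal limits Ugt2b37, Ugt2b38, Gsto2, Gstt4 and Mgst2, and the 3 arrays per group limit every value.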

Other observations

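Probe sets annotated to several genes, with any of these families among them, belong to no member, and 9 such probe sets were on the array. They entered a fit as rows of their own, an alternative chosen after seeing the data. A probe set shared by 5 Ugt1a genes was at 7.33, 6.90 and 6.68 in knockout livers and at 6.39, 6.42 and 6.39 in control livers, a difference of 0.57 (SE 0.17, limma adjusted p = 0.329) without overlap. This is opposite in sign to the 10 single-gene glucuronosyltransferase members. A probe set shared by 8 Ugt1a genes differed by -0.13 (SE 0.12, adjusted p = 0.729), so the Ugt1a locus gave values of both signs that cannot be assigned to single genes here. A dim probe set shared by Ugt2a1 and Ugt2a2 was at 2.02, 1.95 and 1.69 in knockout livers and at 1.22, 1.62 and 2.00 in control livers, a difference of 0.27 (SE 0.20, adjusted p = 0.666) that is also opposite in sign to the members. The probe set shared by Gstp1 and Gstp2 was at 8.85, 8.32 and 10.2 in knockout livers and at 9.80, 10.2 and 10.4 in control livers, a difference of -1.01 (SE 0.40, adjusted p = 0.429). One shared by Gstm5 and a neighbouring transcript differed by 0.61 (SE 0.21, adjusted p = 0.367). Of 3 probe sets shared by Gsta1, Gsta2 and related genes, the differences were -0.55, -0.12 and -0.01. The probe set shared by Gstz1 and Pomt2 differed by -0.07 (SE 0.13, adjusted p = 0.867).

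Other relatives of the 2 families showed no gene at an unadjusted p under 0.05 among 8 measured, against 10.5% of all genes. The largest statistics were those of Alox5ap and Clic1, which differed by 0.41 and 0.28.

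Markers of other cells are given as values, and 0 of those named here passed an adjusted p of 0.05 in limma. For their counts at an unadjusted p under 0.05 the background is 5.06% of all genes higher and 5.46% lower. Stellate cell and fibroblast markers had 8 of 8 positive differences, 2 at an unadjusted p under 0.05, and a summed linear signal of 676 to 1397 in knockout livers against 587 to 752 in control livers, with overlap. Sinusoidal endothelial markers had 5 of 6 positive differences, 1 at that threshold (Lyve1, 0.92), and summed to 567 to 904 in knockout livers against 525 to 542 in control livers. The others differed by 0.27 (Stab2), 0.27 (Kdr), 0.17 (Pecam1), 0.0033 (Stab1) and -0.00082 (Clec4g), each with overlapping groups. This sum therefore does not stand for the whole list. The cholangiocyte markers had 5 of 7 positive differences, 1 at that threshold (Tff3, 1.22), and 3 of them were dim. They summed to 147 to 182 in knockout livers against 99.4 to 114 in control livers. Tff3 was the brightest of them, at means of 6.61 and 5.39, so the sum mostly follows this gene. The others differed by 0.42 (Cftr), 0.34 (Cldn7), 0.11 (Epcam), 0.10 (Krt19), -0.01 (Sox9) and -0.05 (Krt7). Intestinal markers had 2 of 6 positive differences, with 1 gene, Fabp2 (-0.75), at that threshold. They summed to 233 to 305 in knockout livers against 387 to 438 in control livers. Fabp2 was the brightest of them, at means of 7.71 and 8.46, so the sum mostly follows this gene. The others differed by 0.30 (Cdx1), 0.05 (Cdx2), -0.01 (Sis), -0.10 (Vil1) and -0.29 (Lgals4). Neutrophil markers had 6 of 7 positive differences, 3 at that threshold, and 6 were dim. Lymphocyte markers had 5 of 5, 1 at that threshold (Cd3e, 0.61), and 3 were dim. Adipocyte markers had 3 of 5, 1 at that threshold (Fabp4, 0.99), and 3 were dim. Of 4 measured pancreatic acinar markers and 1 erythroid marker, 0 reached it. The part of all these cell markers in the members' differences was not tested.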
